A study of Mus musculus with 4 samples.

Results

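Levels of 10 transcription factor genes of the AP-1 and immediate early groups were followed in the surface and the crypts of the mouse colon, with and without heme in the diet. The genes were Fos, Fosl1 and Fosl2 of the FOS family, Jun, Junb and Jund of the JUN family, and Atf3, Egr1, Myc and Klf6. They were taken by symbol, and all 10 were found among the 19938 genes with a probe set of a single symbol, each as 1 probe set. Male C57BL/6 mice aged 11 weeks ate feed rich in fat (40% of energy) and low in calcium for 14 days. The control group received this feed alone, and the heme group received it with heme, an iron porphyrin found in red meat, at 0.5 µmol/g. Surface and crypt cells were cut from frozen colon rolls by laser capture microdissection. RNA was pooled over 4 control mice or 3 heme mice, giving 1 array for each of control surface, heme surface, control crypt and heme crypt, with both pools of a diet from the same mice.

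AP-1 is a dimer of leucine zipper proteins. FOS proteins bind DNA only together with a partner, usually a JUN protein, whereas JUN proteins can also pair with each other. Many of these genes are immediate early genes, which growth factors, stress and wounding switch on within minutes through MAP kinases, without new protein synthesis. In the intestinal crypt, MYC is a target of Wnt signalling and drives growth and division.

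With 1 array per group there were no replicates, so no test was run and no difference below has a replicate check. Values are log2 expression levels, and a difference of 1 is 2-fold. A gene was called higher or lower when it differed at least 2-fold and was at or above a floor of 5.75 on at least 1 of the arrays compared. The floor is the median over every gene and array. Array medians over 35556 probe sets ran from 5.42 to 5.54. Of 10 surface colonocyte markers, 9 reached the floor and all 9 were higher in control surface than in control crypt cells. The 9 crypt base markers and 9 genes of dividing cells measured there were all lower.

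On the control diet, 9 of the 10 genes were higher in surface than in crypt cells, and Myc was the 1 that was lower. Among the 10864 genes measured in that comparison, 12.0% were higher and 13.5% lower. The median difference of the 10 genes was 1.85, against -0.05 for all genes measured. On the heme diet, 8 were higher and Myc was again lower, where 15.3% of 10698 genes were higher and 16.5% lower. The median was then 2.45, against -0.05 for all genes.

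**Figure D1:**
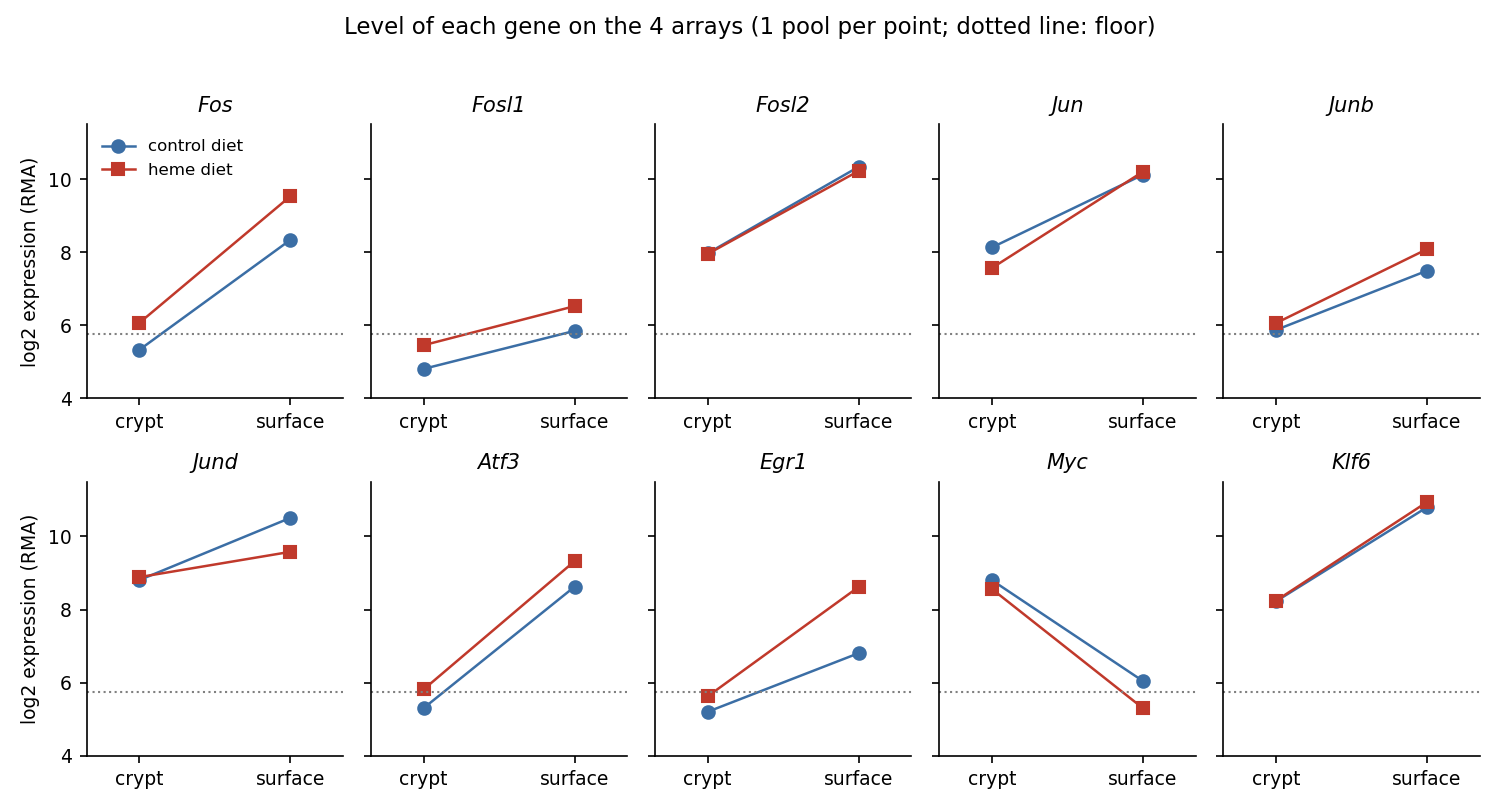
Log2 expression level (vertical axis) of each of the 10 genes in crypt and surface cells on the control diet (circles) and the heme diet (squares), 1 pooled array per point, with the floor of 5.75 as a dotted line. The surface points lie above the crypt points in 9 panels and below them in the panel of Myc, and the largest gap between diets is that of Egr1 in surface cells.

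Fos encodes c-Fos, the founding member of its family. Its level was 8.34 in control surface, 9.53 in heme surface, 5.33 in control crypt and 6.07 in heme crypt cells. Both surface values lay above both crypt values, and the heme value was the higher one in each compartment. The surface to crypt difference was 3.01 (8.05-fold) on the control diet and 3.46 (11.0-fold) on heme. The control crypt value was under the floor. With log2(2^value + 32), which shrinks differences between low values, the differences were 2.30 and 2.96.

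Fosl1 encodes FRA-1, a FOS protein without the strong activation domain of c-Fos. Its level was 5.85 in control surface, 6.52 in heme surface, 4.81 in control crypt and 5.46 in heme crypt cells. Both crypt values were below the floor and the control surface value was just above it. The surface to crypt differences of 1.04 and 1.07 only just passed the 2-fold rule, and with log2(2^value + 32) they were 0.58 and 0.71 and did not. Fosl2, encoding FRA-2, stood at 10.3 in control surface, 10.2 in heme surface, 7.97 in control crypt and 7.95 in heme crypt cells. It separated the compartments by 2.37 and 2.27 and hardly separated the diets.

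Jun encodes c-Jun, the main activating partner of the FOS proteins. Its level was 10.1 in control surface, 10.2 in heme surface, 8.13 in control crypt and 7.57 in heme crypt cells. The surface values lay close together, and the heme crypt value was the lowest of the 4. Surface exceeded crypt by 1.99 (3.97-fold) on the control diet and by 2.64 (6.22-fold) on heme.

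Junb encodes a JUN protein that can restrain c-Jun activity. It stood at 7.49 in control surface, 8.08 in heme surface, 5.87 in control crypt and 6.06 in heme crypt cells. Its surface to crypt differences were 1.62 and 2.02. Jund encodes the JUN protein least dependent on acute stimuli in many cells. Its level was 10.5 in control surface, 9.58 in heme surface, 8.81 in control crypt and 8.89 in heme crypt cells. The heme surface value lay between the control surface value and the crypt values, so the compartments differed by 1.70 (3.25-fold) on the control diet and by 0.69 (1.62-fold) on heme. Jund was the 1 gene of the 9 that missed the 2-fold rule on heme.

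Atf3 encodes a stress-induced zipper protein that pairs with JUN proteins and often represses. Its level was 8.63 in control surface, 9.32 in heme surface, 5.30 in control crypt and 5.81 in heme crypt cells. It had the largest surface to crypt difference of the 10 genes on both diets as deposited, 3.32 on the control diet and 3.51 (11.4-fold) on heme. Only 0.856% and 0.832% of the genes measured had a difference as high. Its control crypt value was below the floor and its heme crypt value just above it. With log2(2^value + 32) Atf3 differed by 2.58 on the control diet and by 2.93 on heme, where Fos was at 2.96.

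Egr1 encodes a zinc finger factor switched on by serum and growth factors through the MAP kinase ERK. It stood at 6.81 in control surface, 8.62 in heme surface, 5.20 in control crypt and 5.62 in heme crypt cells. The heme surface value stood apart from the other 3, and both crypt values were below the floor. Surface exceeded crypt by 1.60 (3.04-fold) on the control diet and by 3.00 (7.97-fold) on heme, or 1.06 and 2.39 with log2(2^value + 32). Klf6, a zinc finger gene induced by injury, was at 10.8 in control surface, 10.9 in heme surface, 8.23 in control crypt and 8.24 in heme crypt cells. Its surface to crypt differences were 2.57 and 2.70.

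Myc was the exception. Its level was 6.05 in control surface, 5.30 in heme surface, 8.80 in control crypt and 8.56 in heme crypt cells. Both crypt values lay above both surface values, and the heme surface value was below the floor. Myc was 6.77-fold lower in surface than in crypt cells without heme (-2.76) and 9.59-fold lower with it (-3.26). With log2(2^value + 32) these were -2.29 and -2.52. Only 0.341% and 0.262% of the genes measured had a difference as low.

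**Figure D2:**
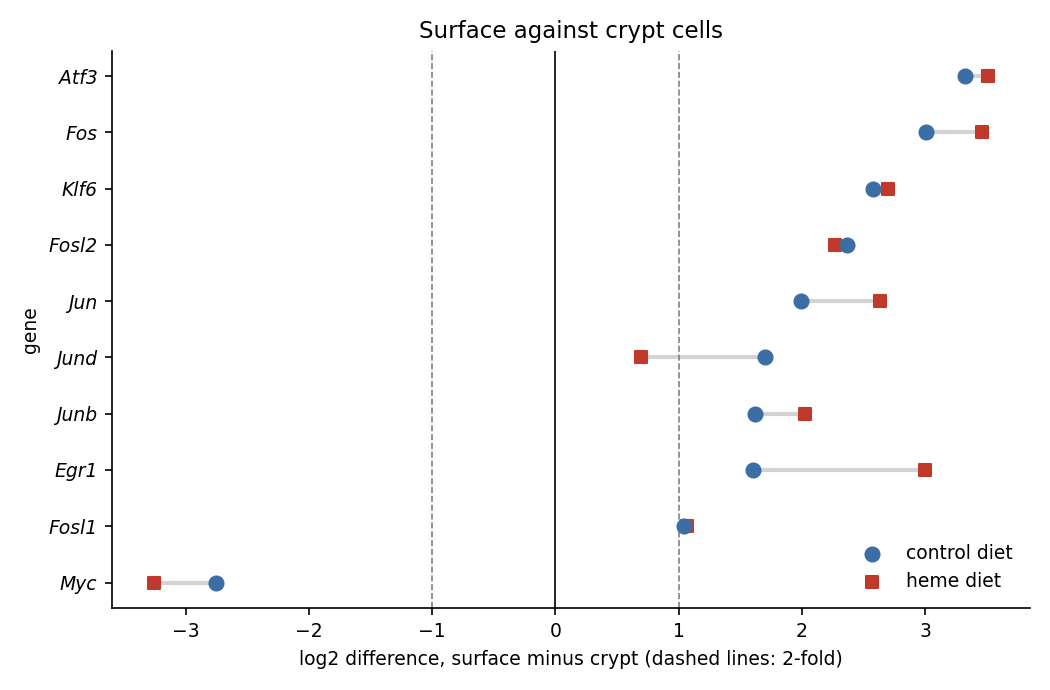
Difference of log2 levels between surface and crypt cells (horizontal axis) for each of the 10 genes on the control diet (circles) and on heme (squares), 1 difference of 2 arrays per point, with dashed lines at 2-fold. Atf3 and Fos lie farthest to the right at 3.32 and 3.01 on the control diet, Myc lies alone on the left at -2.76, and the longest links between diets are those of Egr1 and Jund.

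Cells other than epithelium also express immediate early genes, and in such bulk pools fewer cells of a type and less RNA per cell cannot be told apart. Levels were therefore summed, on the linear scale, over marker lists. The 13 immune markers with a probe set summed to 1619 in control surface, 1390 in heme surface, 2305 in control crypt and 1388 in heme crypt cells. Cd79a, Itgam, Cpa3 and S100a8 were below the floor on every array. The 12 smooth muscle and fibroblast markers summed to 4706, 3879, 5995 and 3334 in the same order, and the 8 endothelial markers to 1598, 1584, 1018 and 634.6. Control surface cells thus had 0.703 times the immune and 0.785 times the stromal signal of control crypt cells, and 1.57 times the endothelial signal. On heme these ratios were 1.00, 1.16 and 2.50. Single genes set some of these sums. Without Kit, a mast cell gene that epithelial cells of the crypt can also express, the immune ratios were 1.04 and 1.41, and Kit was the 1 immune marker of 9 called lower on the control diet. Without Pdgfra the stromal ratios were 0.709 and 0.913, on the other side of 1 for heme. Both sums were added after the values were seen. The 8 pan-epithelial markers summed to 1.86 times the crypt signal in control surface cells and to 2.10 times on heme. The part of these cells in the differences above was not tested.

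The surface to crypt scale also depends on what is held equal. The median level of 52 ribosomal protein genes was 9.79 in control surface and 10.9 in control crypt cells. Centring the arrays on them moved the median surface to crypt difference of all genes to 1.13 on the control diet and 1.11 on heme. Under that scaling, Myc was still lower, at -1.65 and -2.15, and the other 9 genes lay between 2.15 and 4.43 on the control diet. On heme those 9 lay between 1.80 and 4.62.

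Promoter sequences are shown for 4 of the 9 surface-high genes, because each holds a motif that AP-1, ATF or CREB proteins are known to bind. RefSeq promoters (GRCm38.p6) were matched for 7 of the 10 genes. Fosl1, Egr1 and Myc were not matched. The 250 bases before each start site were searched on both strands. The CRE core TGACGT, part of the palindrome bound by CREB and ATF proteins, was present for Fos and Atf3. The variant TGACATCA, known from the Jun promoter, was present for Jun and Klf6. Capitals mark the matched letters, read 5′ to 3′ along the gene's strand, and in Atf3 the match is the reverse complement of the CRE core.
Fos (chr12:85473809-85473844, plus strand): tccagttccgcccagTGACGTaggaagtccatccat
Atf3 (chr1:191183334-191183356, minus strand): gctattaatagcattACGTCAgc
Jun (chr4:95052245-95052282, minus strand): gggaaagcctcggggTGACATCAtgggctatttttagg
Klf6 (chr13:5861355-5861392, plus strand): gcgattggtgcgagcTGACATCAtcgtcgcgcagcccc

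The match in Fos began 66 bases before the start site and that in Jun 45 bases before it. Among 32817 promoters, 6.46% held TGACGT and 2.93% held TGACATCA. The consensus AP-1 site TGANTCA, found in 6.75% of promoters, was in none of the 7 windows. The serum response element core (CArG box), found in 1.47%, was in none of them either. Bases farther upstream, and the promoters of Fosl1, Egr1 and Myc, were not searched. The E-box CACGTG, which MYC and MAX bind, was in the Klf6 window alone (6.02% of promoters). The EGR site GCGNGGGCG was in the Fosl2 window alone (4.70%). These matches describe letters, not binding.

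The next comparison was that of heme with control diet in surface cells, the compartment that faces the gut content. Egr1 and Fos were higher on heme, by 1.81 (3.52-fold) and 1.19 (2.29-fold), and none of the 10 genes was lower by the 2-fold rule. Among 10282 genes measured, 3.62% were higher and 2.01% lower. The median of the 10 genes was 0.37, against -0.02 for all genes measured. Only 0.992% of the genes measured had a difference as high as that of Egr1, and 2.50% had one as high as that of Fos. With log2(2^value + 32), Egr1 differed by 1.56 and Fos by 1.12. When the gene values were quantile normalized, Fos differed by 0.97 and no longer passed the rule, while Jund differed by -1.03 and did pass.

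Just inside the rule stood Fos at 1.19, and outside it Jund at -0.93, Myc at -0.74 and Atf3 at 0.70. Fosl1 differed by 0.68 and Junb by 0.59. By a 1.5-fold rule, Fos, Fosl1, Junb, Atf3 and Egr1 were higher, and Jund and Myc (-0.74) were lower. That rule called 10.5% of the genes measured higher and 7.92% lower. With log2(2^value + 32), Fosl1 (0.47), Junb (0.51) and Myc (-0.46) no longer reached 1.5-fold, while Fos, Atf3, Egr1 and Jund did. Klf6 (0.14), Jun (0.08) and Fosl2 (-0.11) differed by less than 0.2. The FOS and JUN families were each divided: Fos was higher on heme by the 2-fold rule while Fosl2 was nearly level, and Junb lay above 0 while Jund lay below it under each scaling tried.

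**Figure D3:**
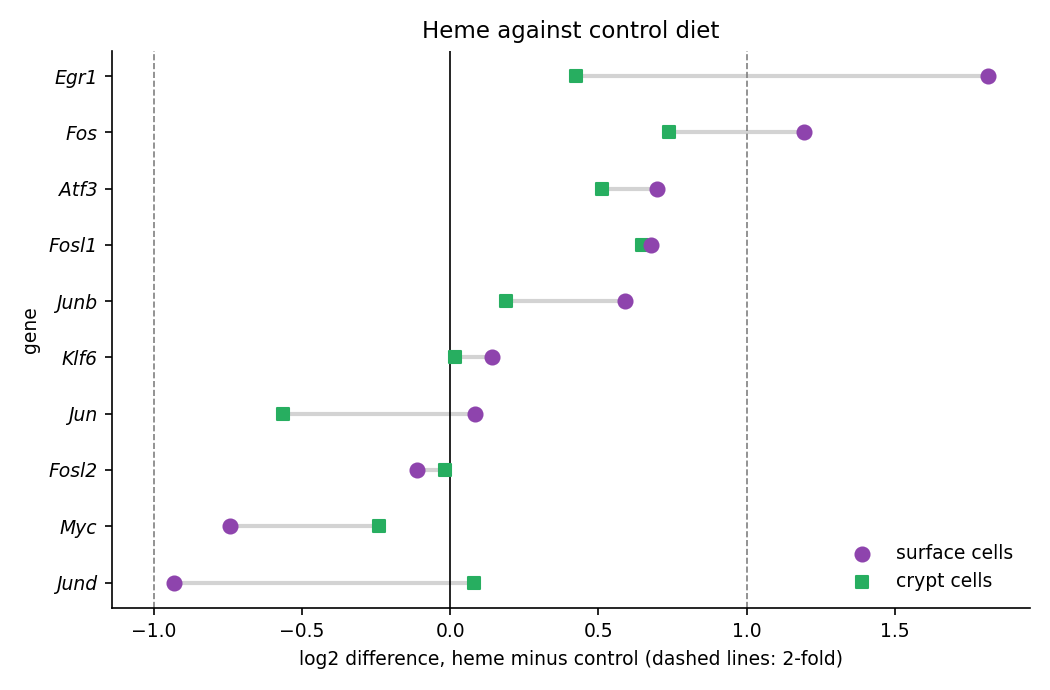
Difference of log2 levels between heme and control diet (horizontal axis) for each of the 10 genes in surface cells (circles) and crypt cells (squares), 1 difference of 2 arrays per point, with dashed lines at 2-fold. The surface points of Egr1 (1.81) and Fos (1.19) lie beyond the line, all crypt points lie within it, and Jund shows -0.93 in surface against 0.08 in crypt cells.

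In crypt cells none of the 10 genes passed the 2-fold rule for heme against control, where 1.78% of 10491 genes were higher and 1.19% lower. Fosl1 and Egr1 were below the floor on both crypt arrays. The differences ran from -0.56 for Jun to 0.74 for Fos, with a median of 0.13 against 0.01 for all genes measured. Fosl1 differed by 0.65, Atf3 by 0.51 and Egr1 by 0.42, all, like Fos, from control values below the floor. With log2(2^value + 32) these became 0.34, 0.30 and 0.24, and Fos 0.46. Junb differed by 0.19, Jund by 0.08, Klf6 by 0.02, Fosl2 by -0.02 and Myc by -0.24. The summed immune, stromal and endothelial markers of the heme crypt pool were 0.602, 0.556 and 0.623 times those of the control crypt pool, and the genes of dividing cells 2.49 times. The surface colonocyte markers summed to 1.38 times the control in that pool, where 5 of 9 were higher on heme, among them Aqp8 (2.55), Slc9a3 (2.05) and Krt20 (1.25). Their median was 1.22. Ceacam1, the highest of these markers in crypt cells (11.9 on control, 11.7 on heme), differed by -0.14 and weighed most in the sum. In surface cells the ratios were 0.859 for immune, 0.824 for stromal and 0.991 for endothelial markers, 1.24 for dividing cells and 1.18 for surface colonocytes. The part of these markers in the values of the 10 genes was not tested.

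The heme difference in surface cells, less the one in crypt cells, was 1.39 for Egr1 and -1.01 for Jund, the 2 genes past the 2-fold rule for this contrast. Of 11147 genes measured on any array, 3.29% were higher and 2.17% lower. Jund only just passed, and it was at -0.98 with log2(2^value + 32) and at -0.97 after centring on the median of all genes. As deposited, the values of Jun (0.65), Myc (-0.50), Fos (0.46) and Junb (0.40) were smaller. Under log2(2^value + 32) Myc was at -0.23, Fos at 0.66 and Jun at 0.57. The values were 0.19 for Atf3 (0.35 under that setting), 0.12 for Klf6, -0.09 for Fosl2 and 0.03 for Fosl1, whose crypt values were below the floor.

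Among themselves, the 10 genes fell into a few shapes over the 4 arrays. Likeness was measured as the root mean square difference between profiles, each centred on its own mean over 4 arrays. Fosl2 and Klf6 were the closest pair (0.18), then Fosl2 and Jun (0.20) and Fos and Atf3 (0.21). Myc was farthest from Atf3 (3.26). The genes most like Fos among 10565 named genes were Dusp1 (0.089), Sult2b1 (0.091) and Gprc5a (0.13). Dusp1 encodes a phosphatase that switches off MAP kinases, and its level was 9.26 in control surface, 10.2 in heme surface, 6.15 in control crypt and 6.88 in heme crypt cells. The genes most like Egr1 were Cidec (0.066), which encodes a lipid droplet protein, Gpt (0.070), which encodes alanine aminotransferase, and Fer1l4 (0.082). Cidec and Fer1l4, like Egr1, were below the floor on both crypt arrays. How often such closeness over 4 arrays arises among so many genes was not tested.

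Other genes of these pathways were read from 9 lists. Of 18 further AP-1 and CREB family genes, 14 were measured in the surface comparison, and none passed the 2-fold rule for heme, with a median of -0.02. Mafg, encoding a small partner of NRF2, differed by 0.74 (7.49 to 8.23) and Maff by 0.52 (6.51 to 7.03). Fosb, the remaining FOS family gene, differed by -0.68, from 6.71 to 6.03, the opposite side from Fos. In crypt cells none of 11 passed. Without heme, 4 of 13 were higher in surface than in crypt cells and none was lower, where 12.0% of all genes measured were higher and 13.5% lower. Among the 4, Fosb and Maff had crypt values below the floor. With log2(2^value + 32) these differed by 0.95 and 0.94 and did not pass, while Batf2 and Mafk did.

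Other immediate early and early response genes formed a list of 30, of which 28 were measured in surface cells. Of these, 4 were higher on heme and none lower, with a median of 0.29. Of all genes measured in surface cells, 3.62% were higher and 2.01% lower. Phlda1 was at 7.58 on control and 9.97 on heme (2.39), and Ier3, a survival gene, at 5.60 and 7.67 (2.07). Egr2, a relative of Egr1, was at 4.84 and 6.29 (1.44), and the orphan receptor gene Nr4a1 at 6.03 and 7.46 (1.43). The control values of Ier3 and Egr2 were below the floor, and with log2(2^value + 32) Egr2 differed by 0.86 and did not pass. In crypt cells these 4 genes differed by 0.13, 0.02, 0.00 and -0.01, with Ier3 and Egr2 below the floor on both crypt arrays. Of 24 measured there, Ccn2, encoding a matrix protein of connective tissue, was lower (-1.10, from 8.08 to 6.99) and none was higher. The shares over all genes measured there were 1.19% lower and 1.78% higher. Ccn2 was at -0.93 with log2(2^value + 32) and did not pass. The stromal marker sum was also lower in that pool (0.556 times), and its part was not tested.

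Kinases and serum response factor partners act upstream of these genes. Of 20 MAP kinase and serum response factor genes measured in surface cells, Map3k8 was higher on heme (1.74, from 6.01 to 7.76) and none was lower, a share near that of all genes, with a median of -0.14. Map3k8 encodes the kinase TPL2, which acts upstream of ERK. Map2k6 differed by -0.93, Map2k4 by 0.80 and Map2k3 by 0.76. In crypt cells none of 20 passed the rule, and Map3k8 differed by -0.42.

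Feedback inhibitors of MAP kinase signalling are themselves induced by it. Of 15 measured in surface cells, 3 were higher on heme and none lower, with a median of 0.09. Over all genes measured, 3.62% were higher and 2.01% lower. Dusp5 was at 6.46 on control and 8.15 on heme (1.69), Dusp6 at 8.47 and 9.95 (1.47), and both encode phosphatases of ERK. Spry4 was at 5.61 and 7.27 (1.66), from a control value below the floor, and Dusp1 differed by 0.95. In crypt cells none of 12 passed, with Spry4 at 0.81 and Dusp1 at 0.73.

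Genes known as AP-1 targets had more members past the rule for heme in surface cells than any other list read. Like the other lists, this one was chosen with earlier results of these data known. Of 23 genes, 16 were measured in surface cells, 7 were higher on heme and none was lower, with a median of 0.75. The shares over all genes measured were 3.62% higher and 2.01% lower. Ereg, encoding the growth factor epiregulin, was at 5.01 on control and 8.55 on heme (3.54). Plaur, the urokinase receptor gene, was at 6.99 and 9.55 (2.55). Sprr1a, a cornified envelope gene, was at 8.34 and 10.5 (2.15), and the matrix metalloproteinase gene Mmp10 at 5.28 and 7.40 (2.12). Ereg, Mmp10 and Timp1 (4.66 on control) had control values below the floor, so they were counted through the heme array alone. With log2(2^value + 32) Ereg differed by 2.66 and Mmp10 still passed. Timp1 (1.41), singled out after its value was seen, was then at 0.79 and did not pass. Ptgs2, encoding cyclooxygenase-2 and named for its surface to crypt difference (2.82 on the control diet), was at 7.50 and 9.41 (1.91). In crypt cells Sprr1a (1.02, from 5.22 to 6.24) was the 1 gene higher of 9 measured, and the list median was -0.23. Over all genes measured in crypt cells, 1.78% were higher. Sprr1a was at 0.63 with log2(2^value + 32) and did not pass. With no floor, the surface median over 21 genes was 0.07. Many of these genes have other regulators too, and Ereg and Ptgs2 are early response genes in their own right.

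**Figure D4:**
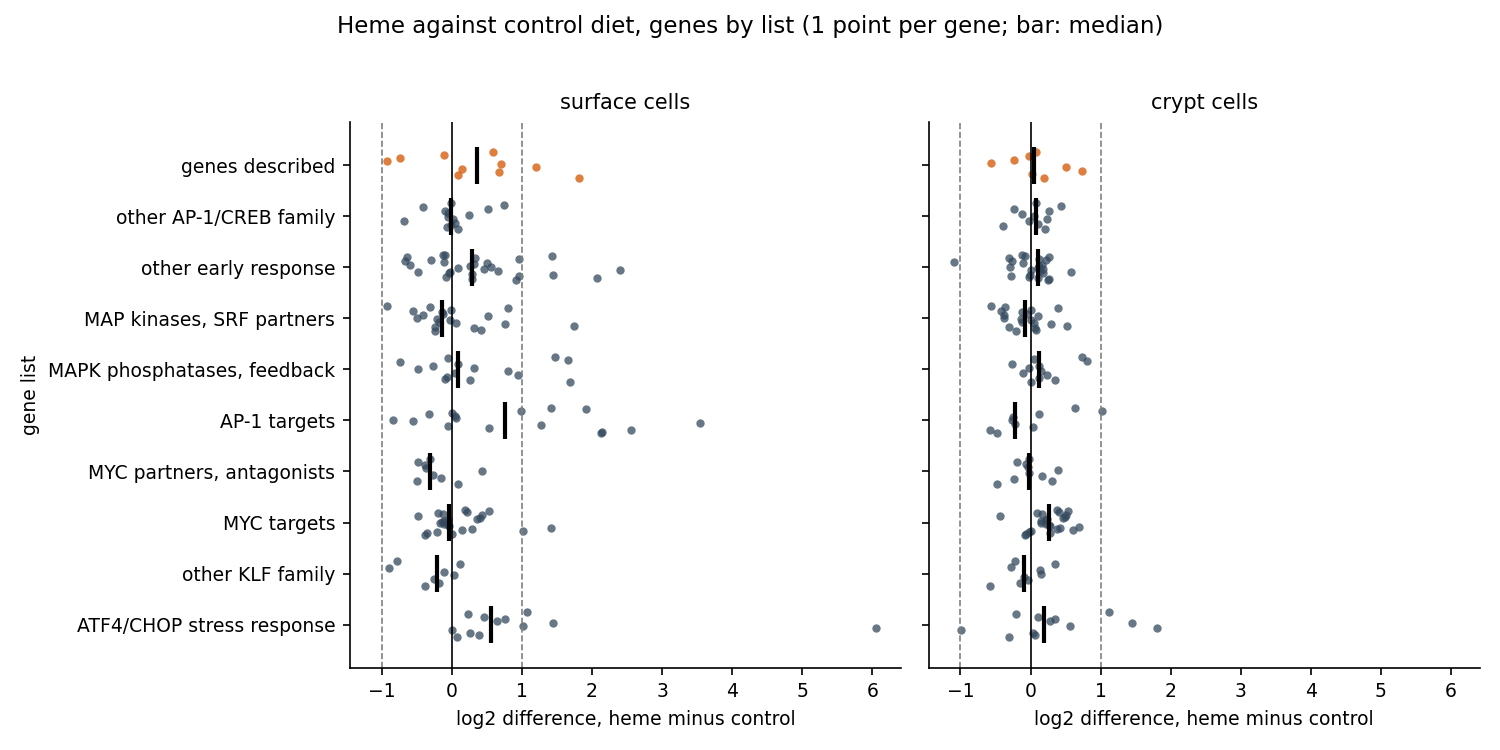
Difference of log2 levels between heme and control diet (horizontal axis) in surface and crypt cells for genes at or above the floor, by list, 1 point per gene with the list median as a bar and dashed lines at 2-fold. In surface cells the AP-1 targets have the highest median (0.75) and 7 of 16 points beyond the upper line. Those 7 include Ereg, Mmp10 and Timp1, which were below the floor on the control diet. In crypt cells the points of most lists lie within the lines.

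The stress pathway through ATF4 and CHOP, which can induce Atf3, was also read. Of 12 genes measured in surface cells, 4 were higher on heme and none lower, with a median of 0.55. The shares over all genes measured were 3.62% higher and 2.01% lower. Slc7a11, the cystine importer gene, was at 4.21 on control, under the floor, and differed by 6.05, or by 4.64 with log2(2^value + 32). Vldlr differed by 1.44, Asns by 1.08 and Phgdh by 1.02. In crypt cells Slc7a11 (1.80), Phgdh (1.45) and Psat1 (1.13) were higher, 3 of 12, and none was lower. Over all genes measured there, 1.78% were higher and 1.19% lower. Phgdh and Psat1 encode enzymes of serine synthesis. Asns (0.94) and Phgdh (0.65) in surface cells and Psat1 (0.85) in crypt cells did not pass with log2(2^value + 32). Of 8 other KLF family genes measured in surface cells, none passed the rule, and Klf5, which promotes epithelial growth, differed by -0.89.

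Genes around Myc were strongly divided between the compartments. On the control diet, 23 of 25 genes known as MYC targets were lower in surface than in crypt cells and 1 was higher, with a median of -2.08. Of all genes measured, 13.5% were lower and 12.0% higher. The 9 crypt base markers and 9 genes of dividing cells measured were also all lower, with medians of -2.31 and -1.79. Cdca7, which is in both the MYC target and the crypt base list, was at 6.82 in control surface cells, -3.18 from its crypt level. The nucleolar gene Nop56 was at 7.19 and 9.73 (-2.54). Nme1 (-2.51) and the RNA polymerase I gene Polr1b (-2.35) followed. Ldha, encoding lactate dehydrogenase A, was the 1 on the other side (1.52) and was singled out after its value was seen. The counts on heme were again 23 and 1, with a median of -2.14, where 16.5% of all genes measured were lower and 15.3% higher. Centred on ribosomal protein genes, the medians of the MYC targets were -0.97 and -1.03, and 11 and 13 of them were lower.

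For the heme diet itself, the MYC targets had medians of -0.04 in surface and 0.26 in crypt cells, beside Myc at -0.74 and -0.24. In surface cells Nme1 (1.42) and Rrs1 (1.01) were higher, both from control values below the floor, and neither passed with log2(2^value + 32). In crypt cells none of 25 passed the rule, and 21 lay above 0, where the median of all genes measured was 0.01. That median of all genes was 0.23 after centring on ribosomal protein genes, so a count above 0 moves with the scaling. The genes of dividing cells summed to 2.49 times the control in that pool, and their part was not tested.

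MAX is the partner that MYC needs to bind DNA, and MXD1 and MXI1 compete with MYC for it. Mxd1 was at 11.8 in control surface, 11.4 in heme surface, 7.48 in control crypt and 7.88 in heme crypt cells. It exceeded crypt by 4.35 on the control diet and by 3.57 on heme, the opposite side from Myc. Max was higher in surface cells by 2.73 and 2.16, and Mxi1 by 1.70 and 2.02. On each diet 3 of the 10 partners and antagonists measured were higher in surface cells and 2 were lower, Mlxipl (-1.35 and -1.78) and Mycl (-1.09 and -1.21). Of all genes measured, 12.0% were higher and 13.5% lower on the control diet, and 15.3% and 16.5% on heme. The compartment values of these partners and antagonists were chosen after they were seen. None of 9 MYC partners and antagonists measured in surface cells passed the rule for heme, with a median of -0.31, and Mxd1 differed by -0.38.

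**Figure D5:**
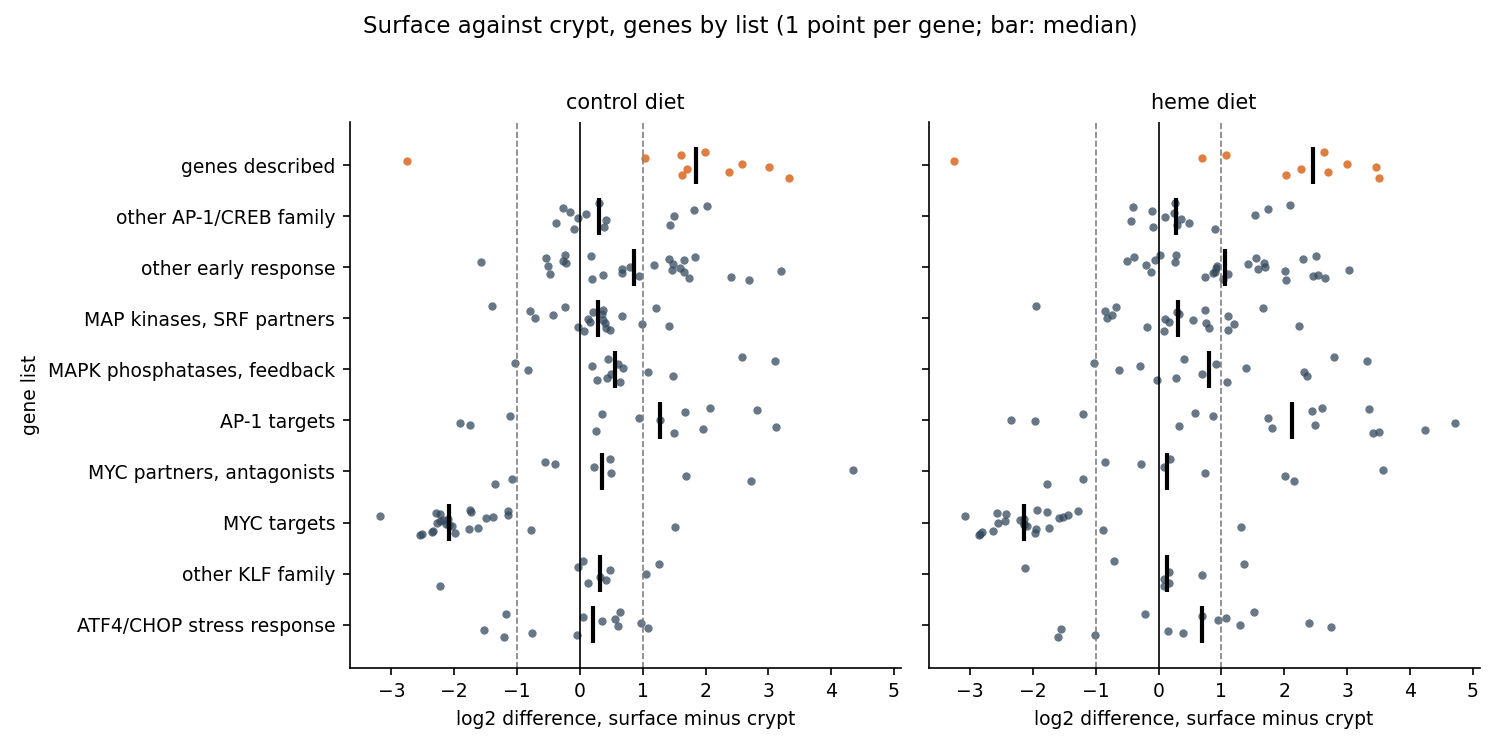
Difference of log2 levels between surface and crypt cells (horizontal axis) on the control and the heme diet for genes at or above the floor, by list, 1 point per gene with the list median as a bar and dashed lines at 2-fold. The medians of the genes described are 1.85 and 2.45, and the MYC targets lie to the left with medians of -2.08 and -2.14.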

How the data were processed

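The deposited values are log2 expression per probe set on Affymetrix whole-transcript arrays, 1 array per pool, computed by RMA, per the submitters' processing notes. The RMA version, and which arrays it took together, are not stated there. Per the labels' protocols, 100 ng of RNA was labelled per pool. No detection calls were applied. Precision is limited by the small number of arrays.

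Of 35556 probe sets, 21789 had 1 gene symbol in the platform annotation, 1621 several and 12146 none. Symbols were updated by gene identifier to GRCm38.p6 for 21698. Gene values are means of single-symbol probe sets. The size rule, floor and comparisons are as given above. The code of the rule was run on simulated arrays with planted differences larger than 2-fold. That run checks the code only, because without replicates the noise of the real arrays is not known.

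The 10 genes, 9 pathway lists and 7 marker lists were chosen with earlier results of these data known. All 10 genes were described, with up to 4 genes per list with the largest heme differences in each compartment, up to 4 AP-1 or MYC targets for surface against crypt, and the 3 most alike genes for those called with heme. Alternatives were other scalings, floors, folds and probe set choices. Python 3.11.15, numpy 2.4.6, pandas 2.3.3 and matplotlib 3.10.9 were used.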

Additional observations from a re-analysis of the deposited data

Results flagged for a closer look

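For Jun and Jund, the difference between heme and control diet had opposite signs in the compartments. Jun differed by 0.08 in surface and by -0.56 in crypt cells, a gap of 0.65. Jund differed by -0.93 in surface and by 0.08 in crypt cells, a gap of -1.01. With 1 array per group neither gap was tested.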

How the results depend on the processing

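Each of the 5 counts of genes past the rule was recomputed under 8 alternatives. Of 400 single gene differences recomputed, 380 stayed on the same side of the rule, 10 lost the call, 10 gained it and none of those called changed sign. The highest probe set setting could change none of its 50, because each gene has 1 probe set. Removing the floor also left all 50 the same. Settings of floor, fold and log2(2^value + 32) cannot reverse a sign. For heme in surface cells, the count of 2 became 7 at 1.5-fold and 1 at 3-fold. For heme in crypt cells, the count of 0 became 1 at 1.5-fold, where Fos was called from a control value below the floor. With log2(2^value + 32) that Fos difference was 0.46, less than 1.5-fold. For the heme effect in surface minus that in crypt, the count of 2 became 1 with log2(2^value + 32) and 1 after centring on the median of all genes, where Jund was lost, and 0 at 3-fold. The counts for surface against crypt stayed within 1.5 times of 10 and 9. Centring on ribosomal protein genes moved the split of all genes on the control diet from 1301 higher and 1464 lower to 6656 and 167, and on heme from 1637 and 1763 to 6810 and 350. For heme against control it moved the split from 372 and 207 to 604 and 130 in surface cells, and from 187 and 125 to 299 and 53 in crypt cells. After centring on the median of all genes, those splits were 468 and 158, and 225 and 94. Values near the floor are least certain. No paired analysis was possible because each group holds 1 array.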
